A study of Mus musculus with 24 samples.

Results

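The genes described are those of Polycomb repressive complex 2 (PRC2) in mouse embryonic stem cells: 10 genes, Ezh1, Ezh2, Eed, Suz12, Jarid2, Aebp2, Mtf2, Phf1, Phf19 and Rbbp7, out of 19953 in the deposited table. They were chosen by symbol as core and accessory subunits of the complex, not by their values, and all 10 passed the filter on low values in every fit. Their transcripts were counted by polyA RNA sequencing of 24 libraries, 3 in each of 8 groups, from 4 genotypes on 2 days. WT cells and Mll1-KO cells, the latter made by CRISPR deletion, were untreated; Mll2-KO and double-KO (Mll1 and Mll2) cells were made by treating Cre-inducible cells with 800 nM 4-hydroxytamoxifen (4-OHT) for 48 hours. The Mll1 deletion was introduced into that same Cre-inducible Mll2 line, and how many clones stand behind each genotype is not given in the sources used here. Loss of Mll2 and the 4-OHT treatment therefore cannot be told apart in any comparison with an untreated group; the double-KO and Mll2-KO groups were both treated. Day 0 cells were stem cells kept with 15% serum and leukemia inhibitory factor, and day 4 cells had been differentiated for 4 days with 1 µM retinoic acid in 10% serum. The labels do not say whether the 3 libraries of a group came from separate cultures, so p-values measure only the spread between these samples, which may be technical.

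PRC2 places methyl groups on lysine 27 of histone H3, a mark of repressed developmental genes. Its core is a catalytic subunit, Ezh2 or its paralog Ezh1, held with Suz12, a scaffold, Eed, which binds the methylated histone and stimulates the enzyme, and a histone-binding protein, Rbbp4 or Rbbp7. The core joins one of the Polycomb-like proteins (Mtf2, Phf1 or Phf19) in a form named PRC2.1, or Jarid2 and Aebp2 in a form named PRC2.2. MLL1 and MLL2, encoded by Kmt2a and Kmt2b, are methyltransferases of lysine 4 of the same histone and belong to the Trithorax group, long known as the counterpart of Polycomb; embryonic stem cells express PRC2 strongly and change its composition when they differentiate.

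Promoters of 6 of the genes are shown: the 3 in which a motif searched for was found (Ezh2, Suz12 and Phf19, which fell on differentiation), Eed, which fell and held none, and Ezh1 and Rbbp7, which rose and held none. RefSeq promoter windows on build GRCm38.p6, 250 bases before to 50 after a gene's start, were searched on both strands for 4 E2F-type motifs (TTTCCCGC, TTTGGCGC, TTTGCCGC and TTTCGCGC) and for the NRF1-type motif GCATGCGC; E2F factors control many genes of the cell cycle. All 10 genes matched a window, with 14 windows in all. An E2F-type motif was found in the windows of Ezh2, Suz12 and Phf19 and of no other member, and the NRF1-type motif in none, against 2.26% and 2.71% of all 32851 windows. Eed, Jarid2, Aebp2 and Mtf2, which also fell, and Phf1, which rose, were thus without one, so falling members were found with and without the motif. Such a match is a description of letters, not a binding site. The background shares count windows, not genes, and are not matched for CG content. Each E2F-type motif holds a CG, and the windows of Ezh2, Suz12 and Phf19 held 31 to 41 CG dinucleotides against a median of 7. These shares therefore cannot show whether the motif is more frequent in the members. The 250 bases before the start are printed 5′ to 3′ on the strand of the gene, with a motif in capitals; in Phf19 the motif lies on the opposite strand, so its reverse complement is what the capitals show. For Ezh2 the motif starts 3 bases after the start that its RefSeq window uses, and 30 bases around it are given. The 250 bases before that start, chr6:47595031-47595280, lie inside the Ezh2 gene model whose position is given below (chr6:47530139-47595341).
Suz12 promoter, chr11:79992856-79993105, plus strand: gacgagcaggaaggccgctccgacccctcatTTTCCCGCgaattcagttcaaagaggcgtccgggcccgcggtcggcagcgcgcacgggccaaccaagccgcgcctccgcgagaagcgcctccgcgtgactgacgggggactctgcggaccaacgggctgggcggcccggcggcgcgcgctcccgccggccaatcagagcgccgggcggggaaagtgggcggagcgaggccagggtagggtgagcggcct
Phf19 promoter, chr2:34913977-34914226, minus strand: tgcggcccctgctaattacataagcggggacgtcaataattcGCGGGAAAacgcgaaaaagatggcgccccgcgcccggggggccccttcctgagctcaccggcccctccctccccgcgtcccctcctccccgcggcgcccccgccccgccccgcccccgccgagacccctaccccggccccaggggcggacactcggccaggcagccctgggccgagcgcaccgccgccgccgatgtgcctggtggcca
Ezh2 start site, chr6:47595009-47595038, minus strand: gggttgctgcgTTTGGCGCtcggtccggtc
Eed promoter, chr7:89980977-89981226, minus strand: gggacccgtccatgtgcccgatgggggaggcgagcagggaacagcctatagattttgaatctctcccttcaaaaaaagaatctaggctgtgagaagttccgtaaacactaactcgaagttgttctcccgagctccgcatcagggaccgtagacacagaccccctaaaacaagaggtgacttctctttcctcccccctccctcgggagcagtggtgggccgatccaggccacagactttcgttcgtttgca
Ezh1 promoter, chr11:101226464-101226713, minus strand: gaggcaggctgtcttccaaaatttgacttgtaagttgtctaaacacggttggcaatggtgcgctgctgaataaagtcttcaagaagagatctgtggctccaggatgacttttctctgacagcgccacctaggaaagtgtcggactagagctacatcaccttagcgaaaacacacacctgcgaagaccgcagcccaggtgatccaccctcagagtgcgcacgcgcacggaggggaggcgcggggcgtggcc
Rbbp7 promoter, chrX:162760122-162760371, plus strand: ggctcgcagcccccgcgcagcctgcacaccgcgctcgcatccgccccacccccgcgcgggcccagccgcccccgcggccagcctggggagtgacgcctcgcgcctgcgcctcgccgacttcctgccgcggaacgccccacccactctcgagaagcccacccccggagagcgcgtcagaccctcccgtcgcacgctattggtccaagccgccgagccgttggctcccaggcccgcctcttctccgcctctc
The windows of Suz12, Phf19, Rbbp7, Ezh2, Ezh1 and Eed held 41, 38, 38, 31, 23 and 17 CG dinucleotides, where the median of all windows was 7 and 26.5% held at least 20.

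Levels are normalized counts, reads of a gene divided by 1 size factor per library, given as mean ± SD over n = 3 libraries. Changes are log2 differences of the normalized count plus 1, with the standard error where shown, from limma with a trend; p-values were adjusted by Benjamini-Hochberg over all genes tested and a gene was called below 0.05. Libraries held 17.7 to 22.8 M reads at day 0 and 10.7 to 17.1 M at day 4, so day 0 levels rest on more reads. Kmt2a checked the Mll1 deletion: its mean was 1089 ± 37.8 in day 0 WT against 29.7 ± 11.8 in Mll1-KO, and 2141 ± 106 against 55.9 ± 13.7 at day 4. In the double-KO it was 29.7 ± 8.36 at day 0 and 104 ± 24.0 at day 4, the latter higher than in Mll1-KO (0.89, adjusted p = 2.6e-06). Kmt2b did not check the Mll2 deletion, since its whole-gene count was 2853 ± 48.2 in WT and 2539.9 ± 226 in Mll2-KO at day 0, and 2269 ± 57.4 and 2502 ± 189 at day 4. The cells carried the markers of their labels: summed pluripotency markers (12 genes) ran from 135572 to 158544 at day 0 and from 3015 to 9664 at day 4, and all 10 retinoic acid response genes were higher at day 4 in WT. The day 0 groups differed in summed endoderm markers (10 genes), at 17467 to 18702 in WT and 17926 to 19075 in Mll2-KO. Mll1-KO had 3230 to 3626 and the double-KO 3182 to 3568. All 9 tested were called lower than WT in each of these 2 genotypes (background 18.7% and 27.1%). The part of this difference in the PRC2 values was not tested. Scaled to column totals, the share of all calls that were higher moved from 53.2% to 38.9% for Mll1-KO against WT at day 0. On that day it also moved from 49.6% to 40.4% for double-KO against WT and from 49% to 38.1% for double-KO against Mll2-KO. At day 4 it moved from 46.2% to 60.3% for Mll1-KO, from 55.6% to 34.5% for Mll2-KO and from 54.2% to 41.4% for double-KO, each against WT. For the double-KO it moved from 56.7% to 36.2% against Mll1-KO and from 48.2% to 55.4% against Mll2-KO.

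Differentiation lowered 7 of the 10 genes and raised 3 in WT. The called falls were Ezh2, Eed, Suz12, Jarid2, Aebp2, Mtf2 and Phf19, and the called rises Ezh1, Phf1 and Rbbp7. In this comparison 39.9% of all genes tested were called lower and 43% higher, and the members' median change was -0.967 beside 0.0442 over all genes. The same 7 and 3 were called in Mll1-KO (background 40.4% lower and 43.7% higher) and in Mll2-KO (39.6% and 41.9%). In the double-KO the same 7 fell and 2 rose (40.1% and 43.2%), with Ezh1 at 0.15 and adjusted p = 0.065. The 4 day comparisons use different libraries and their control groups are not shared. Against the deposited scaling, column totals moved the median of all genes from 0.0442 to 0.166 in WT and from 0.0609 to 0.294 in Mll1-KO, and quantile scaling moved it to -0.0913 and -0.103. Each called direction was kept under both scalings. In bulk samples fewer cells of a type and less RNA per cell cannot be told apart.

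**Figure D1:**
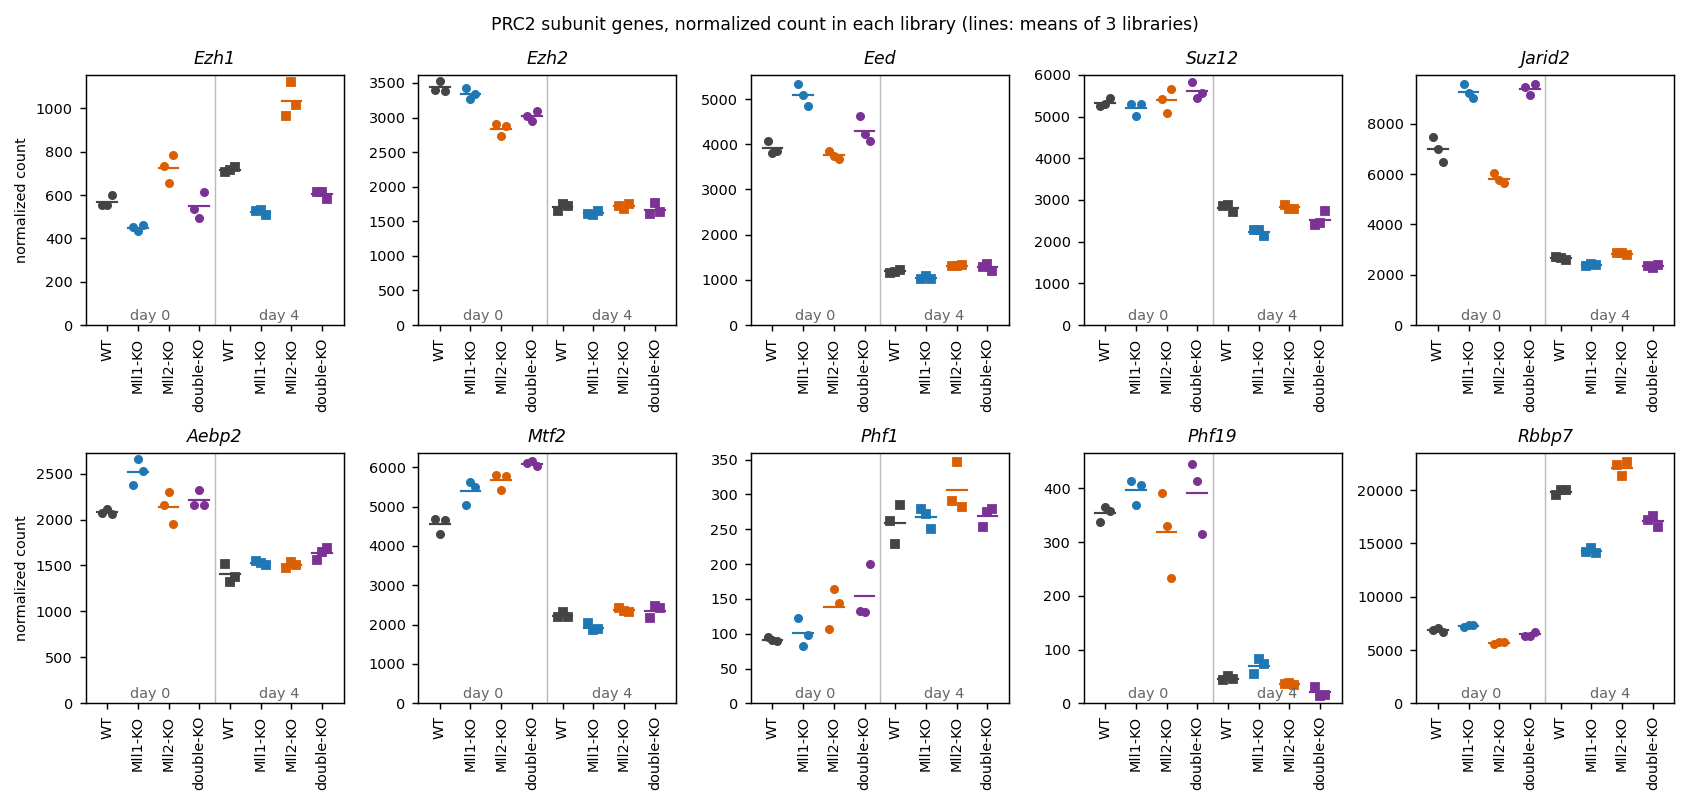
Normalized count (linear axis from 0) of each PRC2 gene in every library, by genotype and day; circles are day 0, squares are day 4, and lines are means of 3 libraries. Ezh1 ran highest in Mll2-KO and lowest in Mll1-KO on each day, while the mean of Ezh2 lay between 1614 and 1714 in all 4 day 4 groups.

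Ezh2, the main catalytic subunit of dividing cells (chr6:47530139-47595341, minus strand), read 3404, 3525 and 3389 in the 3 day 0 WT libraries and 1645, 1754 and 1715 at day 4. The 2 sets stood far apart, a change of -1.01 ± 0.04 or 2.02-fold lower (adjusted p = 1.4e-18). Its fall was -1.05 in Mll1-KO, -0.73 in Mll2-KO and -0.86 in the double-KO. Suz12 (chr11:79993106-80034123, plus strand), the scaffold without which the complex falls apart, read 5251, 5307 and 5440.0 at day 0 and 2847, 2877 and 2718 at day 4 in WT, a change of -0.92 ± 0.05 (adjusted p = 2.5e-16). Per kilobase of their longest coding transcripts Ezh2 and Suz12 stood at a ratio of 1.01 ± 0.0326 in day 0 WT and 0.951 ± 0.0421 at day 4. Eed (chr7:89954654-89980983, minus strand) fell further, from 4074, 3803 and 3862 to 1162, 1184 and 1220.5, 3.29-fold lower (-1.72, adjusted p = 8.5e-22). The Eed to Suz12 ratio per kilobase accordingly went from 1.55 ± 0.0766 to 0.895 ± 0.0482.

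Ezh1 (chr11:101191115-101226463, minus strand), the paralog that predominates in many non-dividing tissues, moved against Ezh2 in WT. Its libraries read 556, 552 and 601 at day 0 and 705, 715 and 732 at day 4, without overlap, a rise of 0.33 ± 0.07 (adjusted p = 0.00016). In Mll1-KO the rise was 0.22 (adjusted p = 0.0083), and Mll2-KO cells had the largest, 0.52 (adjusted p = 3.2e-07). Under quantile scaling the Mll1-KO value fell to 0.0387 (adjusted p = 0.62), and under column totals the double-KO value became 0.268 (adjusted p = 0.0015). Leaving out day 0 double-KO replicate 3 also made the double-KO rise a call, at 0.231 (adjusted p = 0.0062).

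Rbbp7 (chrX:162760402-162779092, plus strand), a histone-binding subunit that also serves other chromatin complexes, rose in each genotype. In WT its rise was close in size to that of Phf1 (given below), and in Mll1-KO it was the smaller, 0.98 ± 0.04 against 1.41 ± 0.16. It was the larger in Mll2-KO (1.96 against 1.16) and in the double-KO (1.4 against 0.824). The difference between the genes was not tested. Rbbp7 read 6865, 7023 and 6649 in day 0 WT and 19498, 20008 and 19973 at day 4, 2.9-fold higher (1.53, adjusted p = 9.8e-24). Its paralog Rbbp4, which occupies the same place in the complex, went from 9379 ± 146 to 5639 ± 146 (-0.73, adjusted p = 1.3e-14), so the Rbbp7 to Rbbp4 ratio per kilobase rose from 1.43 ± 0.061 to 6.91 ± 0.107. Of the 50-base stretches of the longest Rbbp7 transcript, 9.4% also occur in the gene model Gm6382, which is not a row of the table, so part of its count is uncertain where reads could be split. Txlng, which overlaps Rbbp7 on the opposite strand, moved the other way (-1.47, adjusted p = 3.5e-15).

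Jarid2 (chr13:44729474-44921643, plus strand), which recruits and stimulates the complex, read 7478, 7006 and 6473 in day 0 WT and 2696, 2672 and 2598 at day 4, 2.63-fold lower (-1.39, adjusted p = 2.1e-21). Aebp2 (chr6:140622663-140678472, plus strand), its partner in PRC2.2, changed least of the 7 that fell: 2074, 2118 and 2059 became 1513, 1323 and 1375 (-0.57, adjusted p = 2.4e-10). The Jarid2 to Aebp2 ratio per kilobase went from 3.32 ± 0.232 to 1.88 ± 0.117.

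The 3 Polycomb-like genes changed in different directions. Mtf2 (chr5:108065674-108109004, plus strand) fell from 4682, 4312 and 4656 to 2191, 2309.6 and 2192 in WT (-1.03, adjusted p = 1.1e-16), while Tmed5, which overlaps it on the opposite strand, moved the other way (0.66, adjusted p = 1.4e-07). Phf19 (chr2:34893757-34914026, minus strand), which binds histone H3 methylated on lysine 36, fell most of all members, from 338, 366 and 358 to 42.7, 51.1 and 44.8, 7.54-fold lower (-2.91, adjusted p = 7.7e-13). Phf1 (chr17:26933052-26937908, plus strand) rose from 94.9, 90.4 and 89.3 to 262, 229 and 285, 2.79-fold higher (1.48, adjusted p = 2.1e-09). Phf1 overlaps Cuta, a gene on the opposite strand; the library kit keeps strand, but no source used here gives whether the counting used it. Cuta itself was 291 ± 15.0 at day 0 and 284 ± 32.1 at day 4 in WT (-0.04, adjusted p = 0.76).

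**Figure D2:**
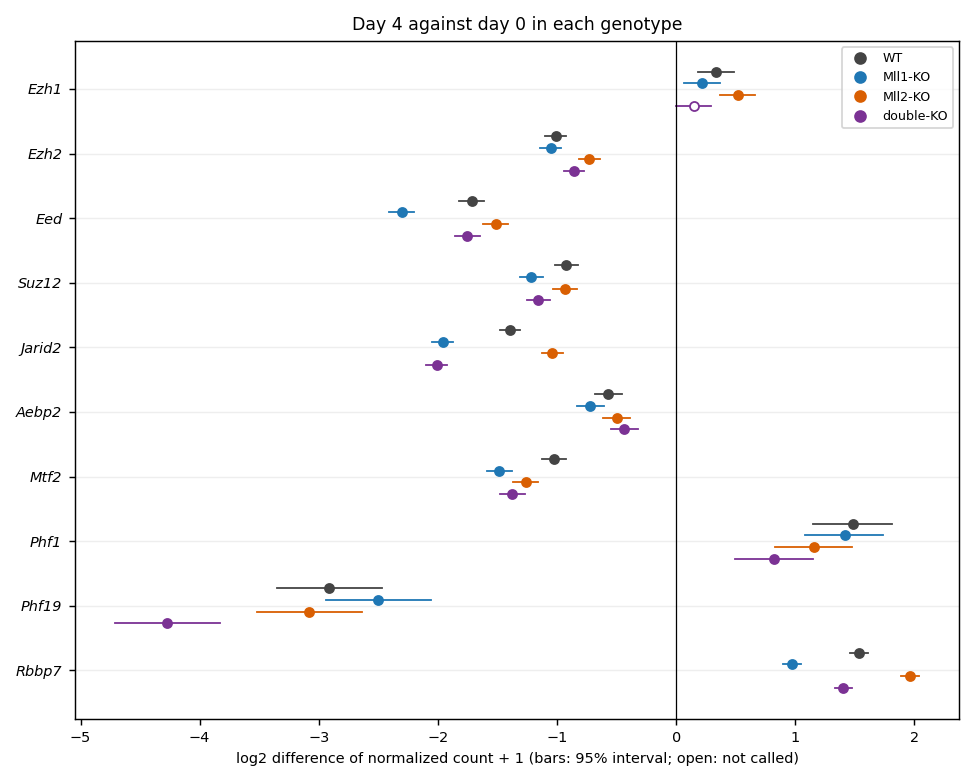
Log2 difference of normalized count + 1 between day 4 and day 0 for each PRC2 gene in the 4 genotypes, with 95% intervals; filled points were called, and the open point is Ezh1 in the double-KO. Ezh1, Phf1 and Rbbp7 lie right of 0 and the other 7 genes left of it in each genotype, with Phf19 in the double-KO at -4.27 farthest from 0.

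Ratios between paralogs within a library do not depend on its size factor, and show the make-up of the transcript pool per kilobase of the longest coding transcript. Ezh2 exceeded Ezh1 9.13 ± 0.571-fold in day 0 WT and 3.59 ± 0.101-fold at day 4. Without the length correction these ratios were 6.05 and 2.38. A gene was given the same length in every library, so the correction changes the size of the ratio and cannot change its fold fall. Whether the transcripts in use differed between days was not tested. With the lower ratio, the Ezh1 share of the pair rose from 9.89 ± 0.567% to 21.8 ± 0.475% in WT. At both days Mll1-KO had the smallest Ezh1 share, 8.16 ± 0.191% and 17.6 ± 0.593%, and Mll2-KO the largest, 14.4 ± 0.807% and 28.5 ± 1.97%. The double-KO libraries overlapped WT at day 0 (9.97 to 11.6% against 9.4 to 10.5%) and lay below it at day 4 (18.7 to 20.3% against 21.3 to 22.1%).

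Among the Polycomb-like genes Mtf2 held most of the pool on both days, 89.5 ± 0.626% in day 0 WT and 82.7 ± 1.67% at day 4. Phf1 went from 2.9 ± 0.117% to 15.4 ± 1.8% and Phf19 from 7.57 ± 0.573% to 1.86 ± 0.153%, so Phf1 and Phf19 exchanged places. That exchange was seen in all 4 genotypes: the Phf1 to Phf19 ratio was 0.329 to 0.936 over the day 0 libraries and 4.88 to 29.5 over those of day 4. Of the summed level of Jarid2, Aebp2, Mtf2, Phf1 and Phf19, the PRC2.2 genes (Jarid2 and Aebp2) held 54.8 ± 1.77% in day 0 WT. At day 4 they held 50.6 ± 1.11%. In day 0 Mll2-KO their share was 46.4 ± 1.2%, and its highest library, 47.6%, was below the lowest of the other 3 day 0 genotypes, 52.7%. Epop, a further PRC2.1 partner described below, is not in that sum. In WT it stood at 3147 ± 214.9 per kilobase at day 0 and 730 ± 45.1 at day 4. The PRC2.2 share and its change therefore depend on which accessory genes are counted. All these ratios and shares are given as descriptions, with no test.

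**Figure D3:**
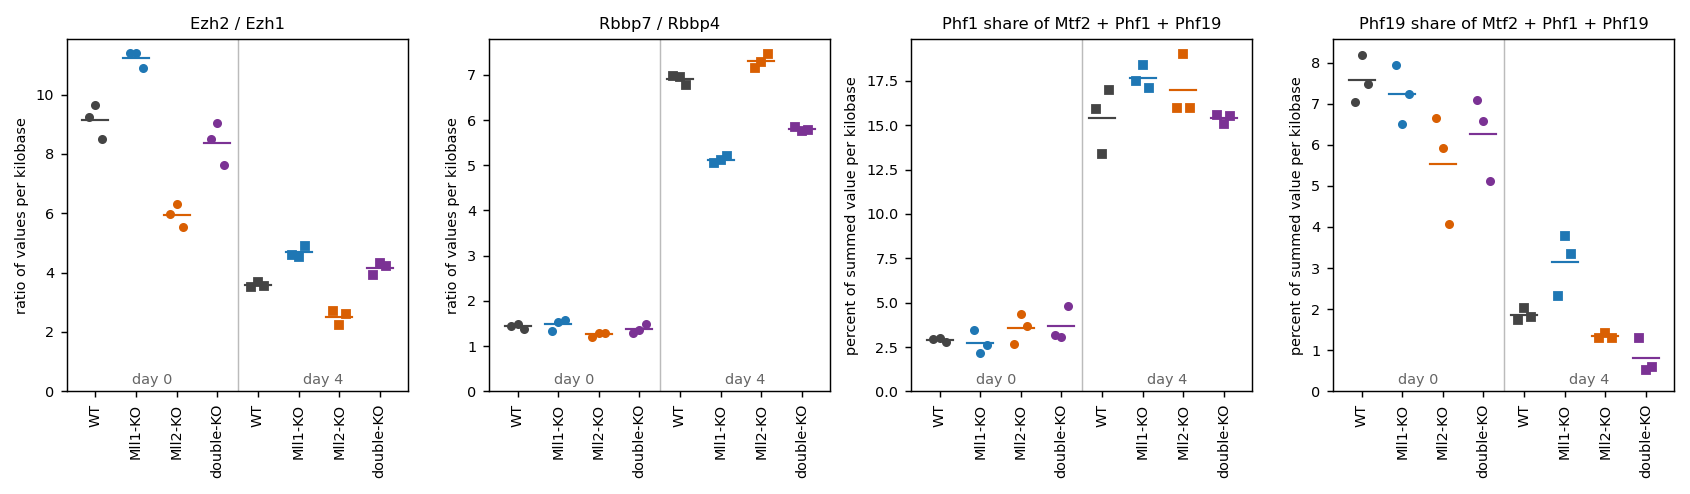
Ratios and shares of PRC2 paralogs in each library, per kilobase of transcript on linear axes from 0, by genotype and day; circles are day 0, squares are day 4, and lines are means of 3 libraries. The Ezh2 to Ezh1 ratio fell from 9.13 to 3.59 in WT, the Rbbp7 to Rbbp4 ratio rose in each genotype, and the Phf1 share rose while the Phf19 share fell.

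At day 0 the stem cells differed in PRC2 genes by genotype, in both directions. Against WT, Mll1-KO had 4 members higher (Eed, Jarid2, Aebp2 and Mtf2; background 21.3%) and 1 lower (Ezh1; 18.7%). Mll2-KO had 3 higher (Ezh1, Mtf2 and Phf1; 22.8%) and 3 lower (Ezh2, Jarid2 and Rbbp7; 24.3%). The double-KO had 4 higher (Eed, Jarid2, Mtf2 and Phf1; 26.6%) and 1 lower (Ezh2; 27.1%). These 3 comparisons share the WT libraries. With 10 members the counts are close to the shares called among all genes, and the description rests on single members.

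Ezh1 moved in opposite directions in the 2 single mutants, as did Jarid2, described next. Its day 0 libraries read 454, 432 and 460.4 in Mll1-KO, below every WT library, and 732, 655 and 783 in Mll2-KO, above every WT library. The changes were -0.34 ± 0.08 (adjusted p = 0.0025) and 0.34 ± 0.08 (adjusted p = 0.0022). In the double-KO it read 536, 493 and 613, overlapping WT (-0.06, adjusted p = 0.56, 95% interval -0.23 to 0.11). The double-KO was lower than Mll2-KO (-0.40, adjusted p = 0.00049) and higher than Mll1-KO (0.28, adjusted p = 0.011), although without day 0 double-KO replicate 3 the latter was 0.197 (adjusted p = 0.083).

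Jarid2 was higher in both genotypes that lack Mll1. It read 9568, 9218 and 9030.5 in Mll1-KO and 9473, 9131 and 9591 in the double-KO, above the WT libraries, and 6031, 5774 and 5645 in Mll2-KO, below them. Against WT these were 0.41, adjusted p = 1.4e-06 in Mll1-KO, 0.43, adjusted p = 4e-07 in the double-KO and -0.26, adjusted p = 0.00021 in Mll2-KO. The double-KO exceeded Mll2-KO by 0.69 (adjusted p = 7e-10), the largest day 0 difference of a member between these 2 treated groups. Against Mll1-KO it differed by 0.02 (95% interval -0.08 to 0.12, adjusted p = 0.78). Summed endoderm markers, given above, were lower than WT in both genotypes that lack Mll1, and their part in the Jarid2 values was not tested.

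Mtf2 was higher in all 3 mutants. Its libraries read 5032, 5622 and 5503 in Mll1-KO, 5798, 5424 and 5778 in Mll2-KO and 6100.2, 6148 and 6018 in the double-KO. No mutant library overlapped WT, and the changes were 0.24, adjusted p = 0.00049, 0.32, adjusted p = 2.4e-05 and 0.42, adjusted p = 4.7e-07. Eed read 5327, 5091 and 4844 in Mll1-KO, 1.3-fold above WT (0.38, adjusted p = 6.8e-06), and 3861, 3739 and 3676 in Mll2-KO, where it was not called (-0.06, adjusted p = 0.38). Its rise in the double-KO, 0.14 (adjusted p = 0.031) with libraries overlapping WT, was lost under both other scalings and without WT replicate 2, WT replicate 3 or double-KO replicate 1, down to 0.0831 (adjusted p = 0.21). Aebp2 was higher in Mll1-KO alone among the calls against WT (2373, 2659 and 2531; 0.27, adjusted p = 8e-04).

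Ezh2 was lower in Mll2-KO and the double-KO, and Rbbp7 in Mll2-KO. Ezh2 read 2907, 2736 and 2877 in Mll2-KO and 3016, 2953 and 3099 in the double-KO, both sets below WT (-0.28, adjusted p = 3.7e-05, and -0.19, adjusted p = 0.0014). In Mll1-KO it differed from WT by -0.04 (95% interval -0.13 to 0.05, adjusted p = 0.51), which quantile scaling made a call (-0.139, adjusted p = 0.0083). Rbbp7 read 5547, 5716 and 5711 in Mll2-KO (-0.27, adjusted p = 1.8e-05). Its double-KO libraries read 6347, 6329 and 6710.4, with 1 of them inside the WT range; this was not a call against WT (-0.08, adjusted p = 0.095) but became one under column totals (-0.144, adjusted p = 0.0053), under quantile scaling (-0.165, adjusted p = 0.0012) and with low genes kept (-0.0834, adjusted p = 0.045). Summed levels of 16 proliferation genes moved with both in Mll2-KO: 89305 to 91285 over its libraries against 105937 to 108295 in WT. There 14 of 16 were called lower and 0 higher (background 24.3% and 22.8%). In the double-KO that sum was 103648 to 106432, with 7 of 16 called lower and 1 higher (background 27.1% and 26.6%). The part of proliferation in these values was not tested. Suz12 was not called in any mutant, with changes of -0.04, 0.01 and 0.07 and 95% intervals within -0.13 to 0.17; under quantile scaling its Mll1-KO value was a call (-0.149, adjusted p = 0.0088).

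Phf1 had few reads and wide errors. It read 106, 164 and 144 in Mll2-KO, where its change was 0.57, adjusted p = 0.016. The double-KO libraries read 133, 130.5 and 199, a change of 0.72, adjusted p = 0.0027, and each of these 6 lay above the WT libraries. The overlapping gene Cuta rose alike, from 291 ± 15.0 in WT to 458 ± 65.8 in Mll2-KO (0.65, adjusted p = 2.1e-05). In the double-KO Cuta was 481 ± 18.1 (0.73, adjusted p = 3.5e-06). Reads of the pair cannot be told apart if strand was not used in counting. The Mll2-KO call was lost without Mll2-KO replicate 2, at 0.433 (adjusted p = 0.089), and when low genes were kept. Phf19 was not called in any mutant at day 0; its 3 Mll2-KO libraries spread from 234 to 391, and without replicate 1 it was lower there by 0.347 on the log2 scale (adjusted p = 0.044).

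**Figure D4:**
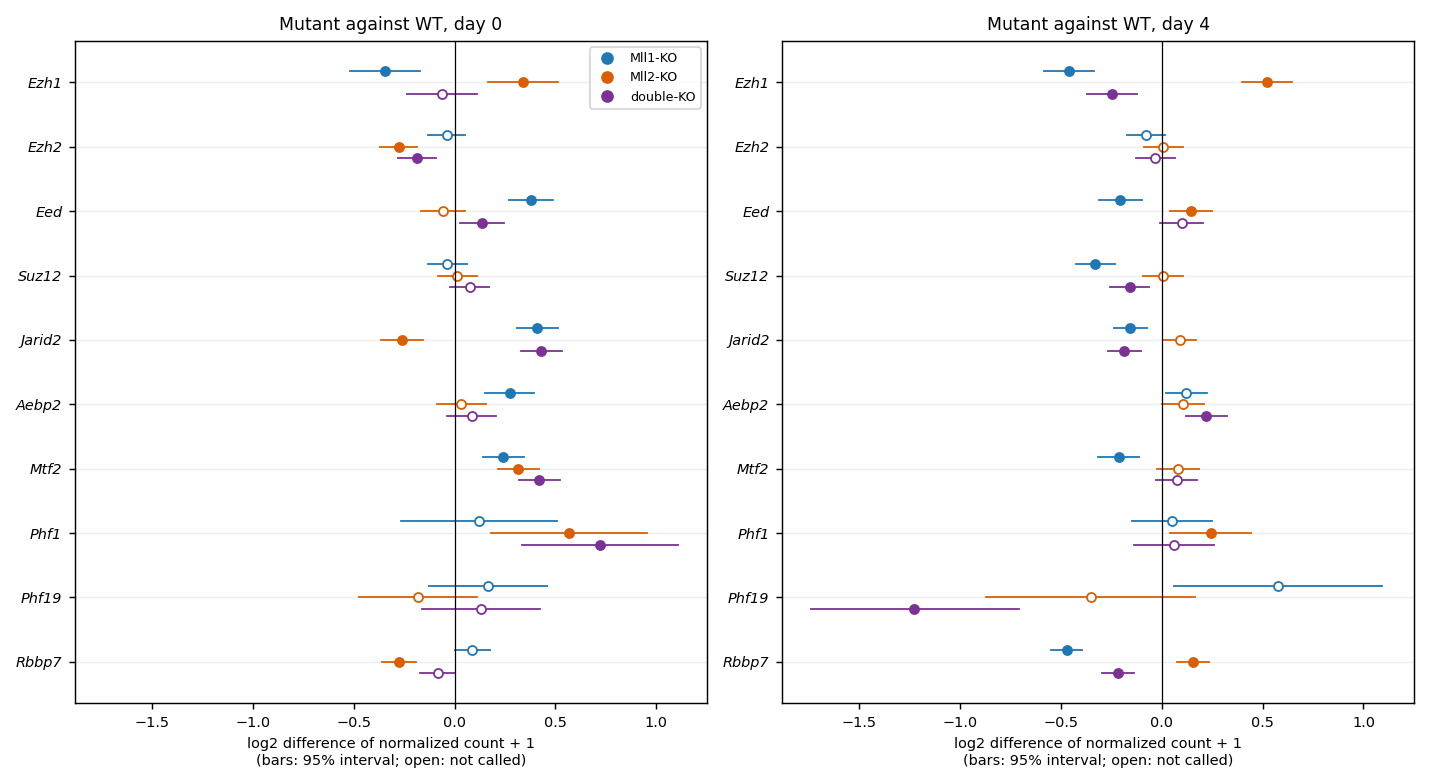
Log2 difference of normalized count + 1 between each mutant and WT for each PRC2 gene, day 0 on the left and day 4 on the right, with 95% intervals; filled points were called. Ezh1 lies left of 0 in Mll1-KO and right of 0 in Mll2-KO on both days, and Phf19 in the day 4 double-KO at -1.23 lies farthest from 0.

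The double-KO set against each single mutant shows what the second deletion went with. Against Mll1-KO at day 0, 3 members were higher (Ezh1, Mtf2 and Phf1; background 18.9%) and 4 lower (Ezh2, Eed, Aebp2 and Rbbp7; 22%). Eed was lower by 0.24 on the log2 scale (-0.24, adjusted p = 9e-04) and Rbbp7 changed by -0.17 (adjusted p = 0.0026). Without double-KO replicate 3 only 4 of the 7 calls were made, and Aebp2 (-0.19, adjusted p = 0.014) was lost without Mll1-KO replicate 2 or double-KO replicates 1 or 3. The Phf1 call (0.60, adjusted p = 0.014) was lost without Mll1-KO replicate 2 or double-KO replicate 3, and that of Ezh2 (-0.15, adjusted p = 0.012) without double-KO replicate 2. Suz12, not called, became a call under column totals (0.116), quantile scaling (0.15) and with edgeR (0.12) and DESeq2 (0.119). Against Mll2-KO, with both groups 4-OHT treated, 3 members were higher (Eed, Jarid2 and Rbbp7; 23.4%) and 1 lower (Ezh1; 24.3%). Quantile scaling ended the Eed call (0.19 to 0.0979) and the Rbbp7 call (0.19 to 0.0769) in this comparison. Phf19, not called, became higher in the double-KO under quantile scaling (0.338, adjusted p = 0.046) and with a replicate block (0.313, adjusted p = 0.038). It was also called without Mll2-KO replicate 1 (0.477, adjusted p = 0.0077) or double-KO replicate 3 (0.46, adjusted p = 0.014). Ezh2 became higher with low genes kept (0.0901, adjusted p = 0.049).

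At day 4 Mll1-KO had 6 members lower and none higher than WT. The called falls were Ezh1, Eed, Suz12, Jarid2, Mtf2 and Rbbp7, with 19.2% of all genes called lower and 16.5% higher. The members' median was -0.181 beside -0.00241 over all genes. Mll2-KO had 4 higher (Ezh1, Eed, Phf1 and Rbbp7; background 25.4%) and 0 lower (20.3%). The double-KO had 1 higher (Aebp2; 27.6%) and 5 lower (Ezh1, Suz12, Jarid2, Phf19 and Rbbp7; 23.3%). Of the 2 absent directions, limma gave 0 members below WT in Mll2-KO at an unadjusted p under 0.05, and edgeR and DESeq2 called 0. In Mll1-KO 2 members, Aebp2 and Phf19, were above WT at an unadjusted p under 0.05, of which edgeR called 1 and DESeq2 0. Beside this, the summed level of 10 endoderm markers was 64450.1 to 68887 in Mll1-KO, 105885 to 109759.6 in the double-KO, 127187 to 130849 in WT and 186414 to 190745 in Mll2-KO, and that of the 16 proliferation genes ran in the same order (38585 to 40062, 42922 to 43556, 44666 to 46558 and 52398 to 53275). These markers moved with genotype, and their part in the PRC2 values was not tested.

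Ezh1 kept its day 0 directions at day 4. It read 525, 533 and 506 in Mll1-KO, 613, 615 and 584 in the double-KO and 963, 1122 and 1015 in Mll2-KO, and the 4 genotypes did not overlap. Against WT the changes were -0.46 ± 0.06 (adjusted p = 1.2e-06), -0.25 ± 0.06 (adjusted p = 0.0012) and 0.52 ± 0.06 (adjusted p = 1e-07). The double-KO was 1.71-fold lower than Mll2-KO (-0.77, adjusted p = 1.8e-10). Against Mll1-KO it was higher by 0.21 (adjusted p = 0.0042), a call lost under column totals (0.104) and with DESeq2 (0.18). Ezh2 was not called in any mutant at day 4: its changes were -0.08, 0.01 and -0.03, with 95% intervals of -0.17 to 0.02, -0.09 to 0.10 and -0.13 to 0.06.

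Rbbp7 separated the 4 genotypes at day 4 in the deposited scaling. It read 14228, 14597 and 14075 in Mll1-KO, 17157, 17539 and 16504 in the double-KO and 22333, 21273 and 22638 in Mll2-KO, with the WT libraries between the latter pair. The changes against WT were -0.47, adjusted p = 4.1e-10 in Mll1-KO, -0.22, adjusted p = 3.5e-05 in the double-KO and 0.15, adjusted p = 0.0016 in Mll2-KO. The Mll2-KO call was lost under column totals (0.065) and quantile scaling (0.0154). Quantile scaling also ended the call of the double-KO above Mll1-KO (0.0454, adjusted p = 0.34), so these separations depend on the scaling. The order of the genotypes in Rbbp7 is that of the summed endoderm and proliferation markers given above. By group mean it is also that of summed retinoic acid response genes and of summed pluripotency markers. The retinoic acid sums of Mll1-KO (22055 to 22337) and the double-KO (22043 to 22955) overlapped, however. Of these 10 genes, 5 were called higher and 4 lower in Mll1-KO than in WT (background 16.5% and 19.2%). Pluripotency markers summed to 3232 in Mll1-KO, 4717 in the double-KO, 6413 in WT and 8961 in Mll2-KO. Other sums ran otherwise: neural markers were lowest in Mll2-KO (3793) and highest in the double-KO (6169). Mesoderm and fibroblast markers were lowest in WT (22291), where trophectoderm markers were highest (36819). The part of all these was not tested.

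Suz12 and Eed were lower in Mll1-KO. Suz12 read 2289.7, 2289.7 and 2141 there (-0.33, adjusted p = 5.4e-06) and 2401, 2439 and 2729 in the double-KO, where 1 library overlapped WT (-0.16, adjusted p = 0.0069). Eed read 1008, 1076 and 1008 in Mll1-KO (-0.21, adjusted p = 0.0027). Eed was higher in Mll2-KO by 0.15 (adjusted p = 0.024), which was lost without WT replicate 1 or 2 or Mll2-KO replicate 2 or 3, under both scalings, and with edgeR (0.108) and DESeq2 (0.119). Leaving out double-KO replicate 3 raised Eed there to a call, 0.149 (adjusted p = 0.025).

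Of the accessory genes, Jarid2 read 2359, 2413 and 2377 in Mll1-KO (-0.16, adjusted p = 0.003) and 2364, 2261 and 2380.3 in the double-KO (-0.19, adjusted p = 0.00035), so the genotypes in which it was high at day 0 were those in which it was low at day 4. Mtf2 was lower in Mll1-KO (2044, 1852 and 1878; -0.21, adjusted p = 0.0015). Aebp2 was the only member called higher in the double-KO (1564, 1646 and 1695; 0.22, adjusted p = 0.00067); in Mll1-KO and Mll2-KO it reached a call only without WT replicate 1, at 0.178 (adjusted p = 0.0086) and 0.159 (adjusted p = 0.015), or, in Mll1-KO, under the 2 other scalings.

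Phf19 was lowest in the differentiated double-KO. Its libraries read 31.3, 13.8 and 16.0 there, 35.3, 38.7 and 33.8 in Mll2-KO, 42.7, 51.1 and 44.8 in WT and 54.9, 82.8 and 72.9 in Mll1-KO, with no overlap between these groups. Against WT the double-KO was 2.34-fold lower (-1.23, adjusted p = 0.00023), and against Mll1-KO 3.49-fold lower (-1.80, adjusted p = 1.4e-06). Mll1-KO and Mll2-KO were not called against WT (0.58, adjusted p = 0.076, and -0.35, adjusted p = 0.27), but the first was called with edgeR (0.618, adjusted p = 0.022), in a fit of those 2 groups alone and without Mll1-KO replicate 1 (0.742, adjusted p = 0.043). These levels are low, so counting error is a large part of their spread. Phf1 in Mll2-KO read 290.1, 346 and 282, overlapping WT; its call (0.24, adjusted p = 0.043) was lost without WT replicate 1 or 2 or Mll2-KO replicate 2 (down to 0.149, adjusted p = 0.26), under column totals, with edgeR and DESeq2, with low genes kept and in the fit with a replicate block (0.242, adjusted p = 0.055).

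Between mutants at day 4, the double-KO had 5 members higher than Mll1-KO (Ezh1, Eed, Suz12, Mtf2 and Rbbp7; background 31.1%) and 1 lower (Phf19; 23.7%). Eed differed by 0.30 (adjusted p = 2e-05), Mtf2 by 0.29 (adjusted p = 3e-05) and Rbbp7 by 0.25 (adjusted p = 3.4e-06). The Suz12 call (0.17, adjusted p = 0.0039) was lost under both other scalings (0.0618 and 0.0594), and the Rbbp7 call under quantile scaling (0.0454). Jarid2, not called, became lower in the double-KO under column totals (-0.138, adjusted p = 0.0059) and quantile scaling (-0.164, adjusted p = 0.0023). Against Mll2-KO, 5 were lower (Ezh1, Suz12, Jarid2, Phf19 and Rbbp7; background 20.9%) and 0 higher (19.4%), where limma gave 1 (Aebp2) at an unadjusted p under 0.05, edgeR called 1 and DESeq2 0. Rbbp7 differed by -0.37 (adjusted p = 1.8e-08) and Jarid2 by -0.28 (adjusted p = 3.5e-06). The Phf19 call (-0.88, adjusted p = 0.0069) was lost without double-KO replicate 2, at -0.655 (adjusted p = 0.051). Aebp2 was called higher without double-KO replicate 1 in both comparisons (0.131, adjusted p = 0.049, and 0.149, adjusted p = 0.035).

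The change on differentiation was compared directly between each mutant and WT as an interaction over all 24 libraries. In Mll1-KO 5 members had a more negative day change than WT (Eed, Suz12, Jarid2, Mtf2 and Rbbp7; background 19%) and 0 a more positive one (15%), where limma gave 0 at an unadjusted p under 0.05 and edgeR and DESeq2 called 0. For Eed the change was -2.30 in Mll1-KO against -1.72 in WT, a difference of -0.58 ± 0.07 (adjusted p = 4.2e-07). Jarid2 fell by 1.96 on the log2 scale in Mll1-KO and by 1.39 in WT (difference -0.57, adjusted p = 4.3e-08). Rbbp7 rose by 0.98 against 1.53 (difference -0.56, adjusted p = 4.3e-09).

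In Mll2-KO 4 members had a more positive day change (Ezh2, Eed, Jarid2 and Rbbp7; 19.3%) and 1 a more negative one (Mtf2; 17%). Rbbp7 rose by 1.96 there, 0.43 more than in WT (adjusted p = 3.3e-07), and Jarid2 differed by 0.35 (adjusted p = 4.6e-05). Summed proliferation genes moved the same way: 15 of 16 had a more positive day change in Mll2-KO and their median difference was 0.475; their part was not tested. In the double-KO 1 member was more positive (Ezh2; 20.3%) and 6 more negative (Suz12, Jarid2, Mtf2, Phf1, Phf19 and Rbbp7; 19.2%). Phf19 fell by 4.27 on the log2 scale in the double-KO and by 2.91 in WT (difference -1.36 ± 0.30, adjusted p = 0.00077). The Jarid2 difference was -0.62 (adjusted p = 5.5e-09). The Suz12 call in Mll1-KO was lost under quantile scaling (-0.158, adjusted p = 0.076), and that of Eed in Mll2-KO under column totals (0.112, adjusted p = 0.21), quantile scaling (0.123, adjusted p = 0.17) and with edgeR (0.168, adjusted p = 0.065). Calls that leaving out 1 library could end were those of Eed in Mll2-KO and of Ezh2, Phf1 and Rbbp7 in the double-KO. Ezh1 showed no called interaction: -0.12 (adjusted p = 0.41), 0.18 (adjusted p = 0.17) and -0.19 (adjusted p = 0.16), with 95% intervals of -0.33 to 0.09, -0.03 to 0.39 and -0.40 to 0.03; without day 0 double-KO replicate 2 the last was -0.258 (adjusted p = 0.05) and just passed. Under column totals, higher calls went from 44% to 64.7% of all calls for the Mll1-KO interaction and from 53.2% to 37.5% for that of Mll2-KO, and the median of all genes from -0.0144 to 0.0972 in the former.

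Per kilobase, the order of levels in day 0 WT ran from Rbbp7 at 3051 ± 83.6 normalized counts per kilobase through Eed (1893 ± 68.8), Ezh2 (1234 ± 26.8), Suz12 (1219 ± 22.2), Jarid2 (1165 ± 83.9) and Mtf2 (1121 ± 50.9) to Aebp2 (351 ± 5.22), Ezh1 (135 ± 6.47), Phf19 (94.6 ± 3.91) and Phf1 (36.2 ± 1.19). Ezh2, Suz12 and Jarid2 each differed from the next in this order by less than the larger SD of the pair. In day 4 WT Rbbp7 stood at 8835 ± 127 and Phf19, then the lowest, at 12.3 ± 1.18. Over the 8 groups the highest mean was 2.13 times the lowest for Ezh2, 2.3 times for Ezh1, 1.8 times for Aebp2 and 19.5 times for Phf19.

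Of the genes whose pattern over the 24 libraries was most like that of Ezh1, among 11794 compared, Tedc2 had a Pearson r of 0.962, Wdfy1 of 0.949 and Myo18a of 0.933. For Ezh2 they were Ubr7 (0.994), Wdr5 (0.994) and Pdk1 (0.993). These are descriptions: the libraries fall into 2 days and share their groups, which alone gives high values for a gene that changes with the day, as Ezh2 does.

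Other genes of the Polycomb system were read from lists, with 39.9% of all genes called lower and 43% higher on differentiation of WT. Of 4 tested further PRC2 partners (of 5 listed), 2 rose, Lcor (701.9 ± 55.8 to 1057 ± 71.3, 0.59) and Lcorl (169 ± 16.9 to 337 ± 50.9, 0.98), and 2 fell, Rbbp4 and Epop (7283 ± 497 to 1689.5 ± 104, -2.11, adjusted p = 3.7e-20). Epop, which binds the PRC2.1 form together with Mtf2, was like Mtf2 higher in all 3 mutants at day 0 (Mll1-KO 0.55, adjusted p = 4.6e-06; Mll2-KO 0.47, adjusted p = 2.4e-05; double-KO 0.65, adjusted p = 2.8e-07). Of 23 genes of PRC1, the complex that ubiquitinates histone H2A, 12 rose and 9 fell in WT. Cbx8, which reads the PRC2 mark, was among those that rose (37.6 ± 10.7 to 223.5 ± 11.0, 2.58). Phc1 (9971 ± 373 to 993 ± 81.1, -3.33) and L3mbtl2 (3362 ± 15.0 to 919 ± 36.5, -1.87) fell most. Of 6 genes for removal of the marks, 2 rose (Asxl3, 18.2 ± 4.48 to 173 ± 13.5, and Kdm6b, which demethylates lysine 27, 1255 ± 71.1 to 2070 ± 112.5) and 2 fell (Asxl1 and Asxl2, -0.59 and -0.67).

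Developmental regulators known as PRC2 targets in stem cells mostly rose in WT. Of 26 tested (of 30 listed), 19 rose and 6 fell, with a median change of 2.53 beside 0.0442 over all genes. Hand2 went from 2.57 ± 2.73 to 349.6 ± 16.7 and Sox9 from 4.85 ± 3.07 to 528 ± 61.6, whereas Olig2 went from 1189 ± 46.8 to 14.7 ± 9.22 and Foxd3 from 444 ± 24.9 to 8.69 ± 3.72. At day 0, 7 of 20 tested were lower and 4 higher in Mll1-KO (background 18.7% and 21.3%), 4 and 4 in Mll2-KO (24.3% and 22.8%), and 8 and 4 in the double-KO (27.1% and 26.6%), so the Mll2-KO counts are near the share of all genes. At day 4, 13 of 25 were lower and 2 higher in Mll1-KO (background 19.2% and 16.5%), 5 and 10 in Mll2-KO (20.3% and 25.4%), and 11 and 4 in the double-KO (23.3% and 27.6%). Several targets on the list are also endoderm markers (Gata4, Gata6, Sox17 and Foxa2), whose summed level moved with genotype as given above.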

How the data were processed

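The authors deposited 1 table of normalized counts, recorded here as signal, for 24 polyA RNA libraries and 19953 genes; each value is a gene's read count divided by 1 size factor per library, and 100% of values gave whole reads at a tolerance of 1e-06. RSEM 1.3.1 and STAR 2.7.10a with build mm10, SAMtools 1.13, DESeq2 1.34.0, FastQC and Trim Galore 3.4 are named, with no role, per the submitters' processing notes; strand use, handling of reads shared between copies and the annotation were not given in the sources used here. Columns of day 0 WT carry a letter the labels do not explain. The members and lists were chosen with earlier results of these data known.

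Groups follow genotype and day. limma 3.58.1 (R 4.3.3) with a trend was fitted to log2(normalized count + 1) for genes reaching 10 in 3 or more libraries, over the 12 libraries of a day or all 24 across days, giving 13984, 14303 and 15114 genes in 17 comparisons, and Benjamini-Hochberg adjusted p below 0.05 was called. Intervals are 95% from the moderated fit. All members were named, up to 2 rises and 2 falls of each other list with a mean of at least 50, and 3 genes each most like Ezh1 and Ezh2. A further gene that this rule names is not reported here. Alternatives were other pseudocounts, filters and scalings, a replicate block, fewer groups, each library left out, and, on the recovered reads, edgeR 4.0.16 (quasi-likelihood) and DESeq2 1.42.0. The pipeline was tested on simulated data. Counts of replicate libraries differed by more than sampling noise (chi-square per degree of freedom 1.852 to 11.48). Positions and lengths are from GENCODE M21 (mm10), where 97.3% of symbols matched.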

Additional observations from a re-analysis of the deposited data

Results flagged for a closer look

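The 17 results below are differences between a mutant and WT in the log2 change from day 0 to day 4, each called by the interaction term over 24 libraries; the 3 mutants share the WT libraries. In Mll1-KO the day change was more negative for Eed (-0.584, adjusted p = 4.2e-07), Suz12 (-0.294, adjusted p = 0.0012), Jarid2 (-0.566, adjusted p = 4.3e-08), Mtf2 (-0.457, adjusted p = 1.6e-05) and Rbbp7 (-0.559, adjusted p = 4.3e-09). Suz12 was not called under quantile scaling (-0.158, adjusted p = 0.076). For Eed, Jarid2 and Mtf2 the difference joins a higher day 0 level with a lower day 4 level. In Mll2-KO it was more positive for Ezh2 (0.284, adjusted p = 4e-04), Eed (0.203, adjusted p = 0.027), Jarid2 (0.353, adjusted p = 4.6e-05) and Rbbp7 (0.43, adjusted p = 3.3e-07), and more negative for Mtf2 (-0.235, adjusted p = 0.012). The Eed value was not called without day 0 WT replicate 1, day 0 Mll2-KO replicate 3, day 4 WT replicate 1 or day 4 Mll2-KO replicate 3, nor under column totals (0.112), quantile scaling (0.123) or edgeR (0.168).

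In the double-KO the day change was more positive for Ezh2 (0.154, adjusted p = 0.037). It was more negative for Suz12 (-0.234, adjusted p = 0.0066), Jarid2 (-0.615, adjusted p = 5.5e-09), Mtf2 (-0.348, adjusted p = 0.00033), Phf1 (-0.659, adjusted p = 0.022), Phf19 (-1.36, adjusted p = 0.00077) and Rbbp7 (-0.133, adjusted p = 0.043). The Ezh2 call was lost in 6 and the Rbbp7 call in 7 of the 12 fits that left out 1 library. Ezh2 was also lost with edgeR (0.139), and Rbbp7 under quantile scaling (-0.128) and with low genes kept; both were lost in a fit of those groups alone. The Phf1 call was lost without day 0 double-KO replicate 3 or day 4 WT replicate 3. Beside it, Cuta on the opposite strand had an interaction of the same sign (-0.65, adjusted p = 0.0014), and its part was not tested.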

How the results depend on the processing

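Over 17 comparisons of 10 genes, no result changed sign where it was called in either setting; sign changes of values called in neither were not counted. Pseudocounts of 0.5 and 5 and a minimum of 50 changed the call or non-call of none of 170 results. DESeq2 changed 4, edgeR 7, column totals 13, quantile scaling 18, keeping low genes 10 and fits of only the groups compared 3; fits without the day 0 WT libraries changed none of 20. Fits leaving out 1 library kept 1150 calls or non-calls, gained 12 calls and lost 38. The 4 members called in Mll2-KO against WT at day 4 became 1 under column totals, 2 under quantile scaling, 2 with edgeR and 2 with DESeq2, and 2 to 4 when 1 library was left out (2 without WT replicate 2 or Mll2-KO replicate 2). Leaving out 1 library gave 4 to 7 calls for double-KO against Mll1-KO at day 0 (4 without double-KO replicate 3) and 4 to 7 for the double-KO interaction (4 without day 4 WT replicate 3). The cause was not tested. Replicate numbers did not pair the libraries: over 84 pairs of equally numbered libraries of 2 groups, the residuals had a median r of 0.00304, with a range of -0.0446 to 0.0768. With a replicate block 166 of 170 results, called or not, kept their side of the threshold; Phf19 in double-KO against Mll2-KO (0.313, adjusted p = 0.038) and Suz12 in double-KO against Mll1-KO (0.11, adjusted p = 0.043) at day 0 were gained, and Phf1 in Mll2-KO at day 4 (0.242, adjusted p = 0.055) and the Rbbp7 interaction in the double-KO (-0.133, adjusted p = 0.05) lost. Without length, the Ezh2 to Ezh1 ratio was 6.05, 7.46, 3.94 and 5.55 at day 0 and 2.38, 3.1, 1.67 and 2.76 at day 4, for WT, the Mll1 and Mll2 single mutants and the double mutant in turn. Depth limits Phf1 and Phf19 most, whose day 4 Phf19 values rest on few reads.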
